A study of Mus musculus with 9 samples.

Results

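Planar cell polarity genes were examined in dorsal pancreas of e12.5 mouse embryos, in hand-dissected tissue that the labels call epithelia and in which markers of mesenchyme and blood were also bright (Vim 63349 to 75025, Hba-a1 67024 to 105060). The 10 genes are Prickle1, Prickle2, Vangl1, Vangl2, Celsr1, Celsr2, Celsr3, Ror2, Ptk7 and Daam1, found by gene symbol among 18541 genes in the authors' table, and each is measured by 1 Agilent probe. The set was put together around the low intensity of Prickle2 in the double heterozygotes, and the other 9 genes were added for their place in the pathway and for the role of Celsr genes in endocrine differentiation. The values of Prickle2 are therefore given as a description, with no test.

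Planar cell polarity aligns cells within the plane of a sheet, at right angles to their apical-basal axis. Its core proteins sit in opposing complexes at cell borders: Celsr cadherins bridge neighbouring cells, Frizzled with Dishevelled gathers on one side, and Vangl with Prickle on the other. Non-canonical Wnt ligands act on the pathway through Frizzled and through the co-receptors Ror2 and Ptk7, and formins such as Daam1 pass the signal to the actin cytoskeleton. In the mouse pancreas, loss of Celsr2 and Celsr3 is known to impair the differentiation of endocrine cells from the progenitor epithelium.

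Littermates of 3 genotypes, named as in the labels, were compared with 3 samples each. The double heterozygotes (Sox9Pdx1D-het) carry a floxed Sox9 allele, the Foxa3-Cre transgene and 1 LacZ knockout allele of Pdx1. The Sox9 heterozygotes (Sox9het) carry the floxed Sox9 allele and Foxa3-Cre. The Pdx1 heterozygotes (Pdx1het) carry the LacZ knockout allele of Pdx1. Foxa3-Cre is a Cre recombinase gene under regulatory sequence of Foxa3, a gene of the endoderm. The labels of the Pdx1 heterozygotes do not name it, so the loss of a Sox9 allele and the presence of Cre cannot be told apart against that group. Wild-type embryos were not analysed here. Each sample is RNA from 3 dorsal pancreata, dissected by hand, and p-values measure the spread between such pools.

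The values are normalized intensities of 1-colour arrays, in arbitrary units, and the median of the 18541 intensities was between 347 and 353 in all 9 arrays. Sox9 gave 292, 328 and 381 in double heterozygotes, against 294, 294 and 325 in Sox9 heterozygotes and 239, 198 and 234 in Pdx1 heterozygotes. Sox9 was thus not lower in the groups labelled as lacking a Sox9 allele. Pdx1 gave 1203, 1143 and 1352 in double heterozygotes, against 1316, 1573 and 1502 in Sox9 heterozygotes and 1132, 1098 and 1080 in Pdx1 heterozygotes. The position of either probe within its gene was not analysed here, so neither value checks the genotype labels, and all directions below are those between groups as labelled. The epithelial genes Epcam and Cdh1 were between 8849 and 14156 in every sample.

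Prickle2, a LIM-domain protein of the cytoplasmic face of the Vangl complex, had intensities of 386, 433 and 322 in double heterozygotes, against 730, 675 and 670 in Sox9 heterozygotes and 835, 706 and 742 in Pdx1 heterozygotes. All 3 double heterozygotes lay below all 6 single heterozygotes, and the values of the Sox9 and Pdx1 heterozygotes overlapped. The mean was 380.3 ± 55.7 in double heterozygotes, against 691.7 ± 33.3 in Sox9 heterozygotes and 761 ± 66.6 in Pdx1 heterozygotes (SD, n = 3 each). On the log2 scale the double heterozygotes differed from the Sox9 heterozygotes by -0.87 and from the Pdx1 heterozygotes by -1.01, which is 54.6% and 49.7% of the level in those groups. Among the 18541 log2 ratios these were the 30th and the 9th from the lowest. With any 1 of the 9 samples left out, the log2 ratio of Prickle2 stayed between -0.97 and -0.76 with Sox9 heterozygotes as reference, and between -1.11 and -0.89 with Pdx1 heterozygotes.

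Prickle1, the paralog of Prickle2 in the same complex, had 201, 214 and 183 in double heterozygotes, against 260, 240 and 255 in Sox9 heterozygotes and 289, 235 and 247 in Pdx1 heterozygotes. Its double heterozygotes also lay below all 6 single heterozygotes, a pattern shown by 7.14% of all genes. The log2 ratio of Prickle1 was -0.34 ± 0.096 (SE) against the Sox9 heterozygotes (limma adjusted p = 0.108) and -0.36 ± 0.096 against the Pdx1 heterozygotes (adjusted p = 0.159). Neither passed the threshold of 0.05 after Benjamini-Hochberg adjustment over all genes, whereas in the authors' deposited table both had an FDR under it (0.0118 and 0.0109). The Sox9 and Pdx1 heterozygotes overlapped in Prickle1, with a log2 ratio of -0.03 between them (Sox9 over Pdx1, adjusted p = 0.96).

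The sequences before the transcription starts of both Prickle genes are shown because these were the members whose double heterozygotes lay below both single heterozygotes in every sample, and because the mutated genes encode DNA-binding factors. RefSeq (GRCm38.p6) lists 4 start windows for Prickle2 and 2 for Prickle1, each from 250 bases before to 50 bases after a start, and the deposited values do not tell which start is used. The first line is the Prickle2 window farthest upstream, at chr6:92706135-92706434 on the minus strand, and the other lines are the Prickle1 windows at chr15:93595853-93596152 and chr15:93519471-93519770, also on the minus strand. Capitals mark the letters AACAAT or their reverse complement, a core bound by SOX factors.
Prickle2 upstream start: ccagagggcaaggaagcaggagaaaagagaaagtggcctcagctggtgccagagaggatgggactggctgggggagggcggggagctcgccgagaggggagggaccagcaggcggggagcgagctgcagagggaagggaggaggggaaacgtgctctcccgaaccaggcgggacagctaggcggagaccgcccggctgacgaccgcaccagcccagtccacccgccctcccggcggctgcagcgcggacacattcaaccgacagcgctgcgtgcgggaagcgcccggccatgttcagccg
Prickle1 upstream start: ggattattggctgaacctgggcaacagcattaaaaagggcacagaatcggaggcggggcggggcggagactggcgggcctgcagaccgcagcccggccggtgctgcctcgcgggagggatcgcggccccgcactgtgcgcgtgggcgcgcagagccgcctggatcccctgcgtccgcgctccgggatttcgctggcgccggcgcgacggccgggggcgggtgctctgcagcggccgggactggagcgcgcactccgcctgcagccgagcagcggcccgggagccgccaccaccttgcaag
Prickle1 downstream start: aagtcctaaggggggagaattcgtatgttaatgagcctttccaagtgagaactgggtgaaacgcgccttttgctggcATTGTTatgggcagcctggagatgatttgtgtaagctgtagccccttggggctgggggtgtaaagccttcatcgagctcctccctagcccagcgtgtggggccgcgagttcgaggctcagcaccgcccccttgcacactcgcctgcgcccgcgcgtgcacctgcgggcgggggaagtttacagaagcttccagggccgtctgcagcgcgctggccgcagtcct
A search of both strands for AACAAT and for TAATTA, a core of homeodomain factors such as Pdx1, covered the 13 windows of the 8 members in the RefSeq table. AACAAT occurred in 1 window, that of the downstream start of Prickle1, 173 bases before the start, and TAATTA in 0. Among 32851 mouse promoter windows of the same length, 10.7% held AACAAT and 5.29% held TAATTA. None of the 4 Prickle2 windows held either string. The upstream Prickle2 window was 69.7% G and C, against 46.3%, 51.3% and 50.3% in its 3 other windows.

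**Figure D1:**
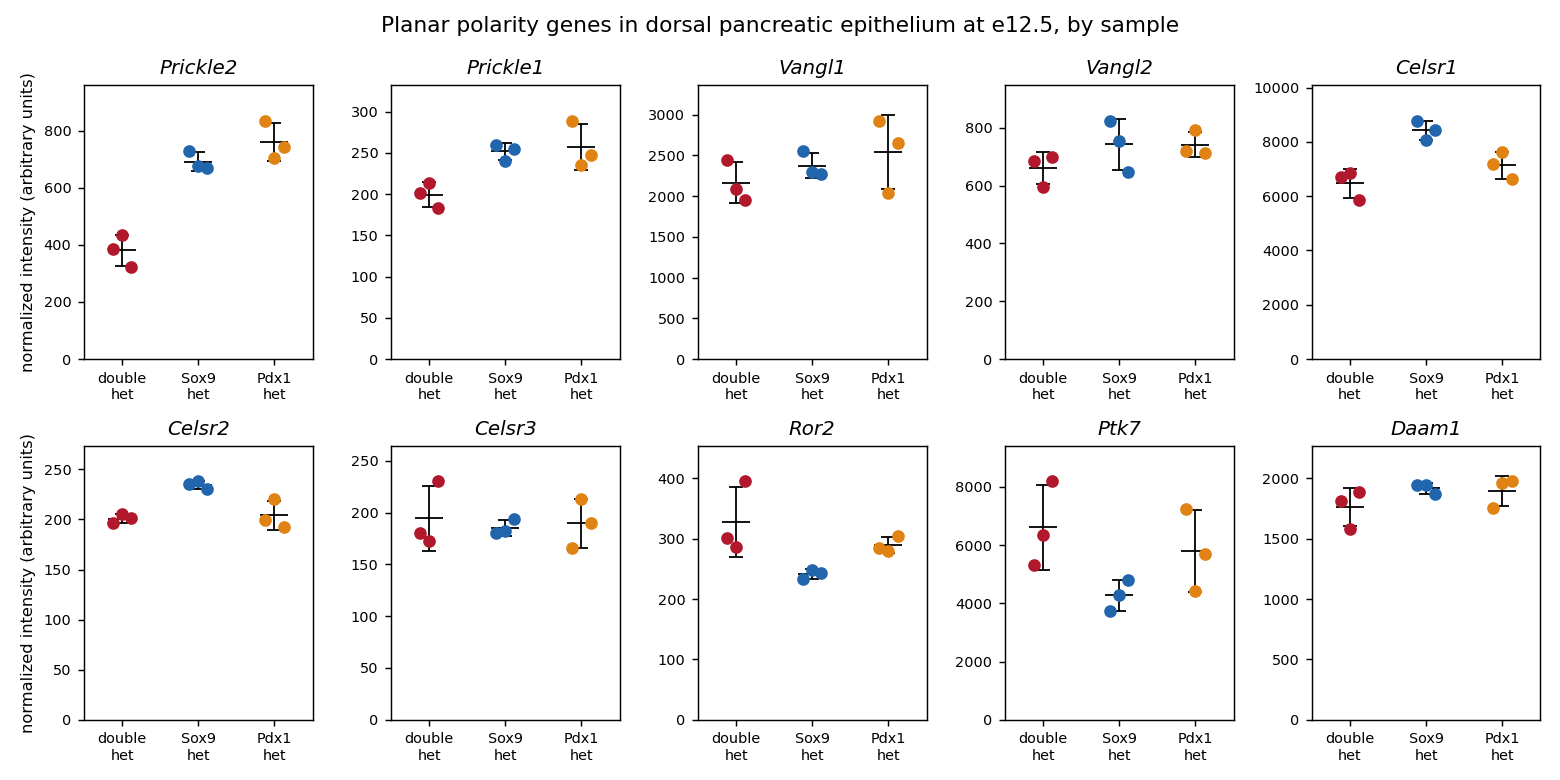
Normalized intensity (arbitrary units, linear axes from 0) of the 10 planar polarity genes in each sample, for double, Sox9 and Pdx1 heterozygotes. Points are samples, horizontal lines are group means and bars are 1 SD (n = 3). The 3 double heterozygotes lie between 322 and 433 for Prickle2, below all single heterozygotes, and those of Prickle1 lie between 183 and 214, also below them.

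Celsr1, a seven-pass cadherin that carries polarity across cell borders, had 6704, 6861 and 5856 in double heterozygotes, against 8781, 8078 and 8442 in Sox9 heterozygotes and 7173, 7629 and 6635 in Pdx1 heterozygotes. The double heterozygotes lay below the Sox9 heterozygotes without overlap and overlapped with the Pdx1 heterozygotes. The log2 ratio of Celsr1 was -0.38 ± 0.087 (SE) against the Sox9 heterozygotes (limma adjusted p = 0.0953) and -0.14 ± 0.087 against the Pdx1 heterozygotes (adjusted p = 0.41). In the authors' deposited table the FDR of Celsr1 was 0.00452 against the Sox9 heterozygotes and 0.105 against the Pdx1 heterozygotes.

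Celsr2, a family member known for its part in endocrine differentiation and in ciliated ependyma, had 196, 205 and 201 in double heterozygotes, against 235, 238 and 230 in Sox9 heterozygotes and 199, 220 and 193 in Pdx1 heterozygotes. Its samples were the closest together of the 10 genes, with a pooled SD of 0.06 on the log2 scale. The Sox9 heterozygotes stood above both other groups, and the double and Pdx1 heterozygotes overlapped. The log2 ratio of Celsr2 was -0.22 ± 0.071 (SE) against the Sox9 heterozygotes (limma adjusted p = 0.115; FDR 0.0457 in the authors' deposited table). Against the Pdx1 heterozygotes it was -0.02 ± 0.071 (adjusted p = 0.891).

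Celsr3, which acts with Celsr2 in the pancreas and guides axons in the brain, had 180, 173 and 230 in double heterozygotes, against 180, 182 and 194 in Sox9 heterozygotes and 166, 213 and 190 in Pdx1 heterozygotes. All 3 groups overlapped, and the spread within the double heterozygotes was wider than any difference between group means. The unadjusted 95% interval of its log2 ratio was -0.22 to 0.34 against the Sox9 heterozygotes and -0.25 to 0.31 against the Pdx1 heterozygotes. Differences within these intervals were therefore not excluded. Celsr1 and Celsr2 both had their lowest group mean in double heterozygotes and their highest in Sox9 heterozygotes, and a difference between the Celsr genes was not tested.

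Vangl1 and Vangl2 encode the four-pass membrane proteins that hold Prickle at the cell border. Vangl1 had 2446, 2091 and 1956 in double heterozygotes, against 2556, 2296 and 2274 in Sox9 heterozygotes and 2926, 2039 and 2652 in Pdx1 heterozygotes, with overlap between all groups. Its log2 ratio was -0.14 ± 0.137 (SE) against the Sox9 heterozygotes and -0.22 ± 0.137 against the Pdx1 heterozygotes (limma adjusted p = 0.513 and 0.423).

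Vangl2, the paralog whose mutation gives the mouse loop-tail defect of the neural tube, had 686, 597 and 699 in double heterozygotes, against 825, 754 and 649 in Sox9 heterozygotes and 720, 793 and 714 in Pdx1 heterozygotes. The double heterozygotes lay below the Pdx1 heterozygotes without overlap, by a margin of 699 to 714, and overlapped with the Sox9 heterozygotes. Its log2 ratio was -0.17 ± 0.105 (SE) in both comparisons (limma adjusted p = 0.311 against Sox9 and 0.418 against Pdx1 heterozygotes). The log2 ratios of both Vangl genes were below 0 in both comparisons and did not pass the test.

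Ptk7, a kinase-dead receptor that acts as a Wnt co-receptor, had 5316, 6344 and 8186 in double heterozygotes, against 3740, 4282 and 4796 in Sox9 heterozygotes and 7233, 4440 and 5700 in Pdx1 heterozygotes. The double heterozygotes were above the Sox9 heterozygotes without overlap and overlapped with the Pdx1 heterozygotes. Ptk7 also varied most between samples of 1 genotype, with a pooled SD of 0.29 on the log2 scale. Its log2 ratio was 0.62 ± 0.199 (SE) against the Sox9 heterozygotes (limma adjusted p = 0.118; FDR 8e-05 in the authors' deposited table) and 0.20 ± 0.199 against the Pdx1 heterozygotes (adjusted p = 0.604).

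Ror2, a receptor tyrosine kinase for Wnt5a, had 302, 287 and 395 in double heterozygotes, against 233, 249 and 244 in Sox9 heterozygotes and 285, 279 and 305 in Pdx1 heterozygotes. The double heterozygotes were above the Sox9 heterozygotes without overlap, and overlapped with the Pdx1 heterozygotes, which themselves stood above the Sox9 heterozygotes. The log2 ratio of Ror2 was 0.42 ± 0.114 (SE) against the Sox9 heterozygotes (limma adjusted p = 0.104; FDR 0.00379 in the authors' deposited table) and 0.17 ± 0.114 against the Pdx1 heterozygotes (adjusted p = 0.459). Double-heterozygote replicate 3, whose title names both 3 and 4, was the highest or the lowest of its group for 9 of the 10 members, Celsr2 being the exception. Its array also had the lowest mean correlation with arrays of other groups (0.9868, against 0.9896 to 0.9936 for the other arrays). Without this sample the log2 ratio of Ror2 was 0.28 against the Sox9 heterozygotes and 0.024 against the Pdx1 heterozygotes. That of Ptk7 was 0.45 against the Sox9 heterozygotes and 0.032 against the Pdx1 heterozygotes, and against the Pdx1 heterozygotes it was 0.020 without Pdx1-heterozygote replicate 2.

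Daam1, a formin that links Dishevelled to actin assembly, had 1810, 1583 and 1888 in double heterozygotes, against 1941, 1945 and 1867 in Sox9 heterozygotes and 1755, 1960 and 1974 in Pdx1 heterozygotes. The groups overlapped, and the log2 ratio was -0.13 ± 0.086 (SE) against the Sox9 heterozygotes and -0.11 ± 0.086 against the Pdx1 heterozygotes (limma adjusted p = 0.338 and 0.507).

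Against the Sox9 heterozygotes, 0 of the 9 members other than Prickle2 passed the limma test, beside 0.307% of all genes (57 of 18541). At an unadjusted p under 0.05 there were 5 of the 9, beside 27.4% of all genes. The authors' deposited table called 2 of the 9 higher (Ror2 and Ptk7) and 3 lower (Prickle1, Celsr1 and Celsr2), beside 12.0% and 11.1% of all genes, or 23.1% in either direction. The same 5 genes had no overlap between the groups, 2 higher and 3 lower, beside 18.6% and 16.7% of all genes. The median log2 ratio of the 9 was -0.14, beside -0.00092 over all genes. In the whole table the deposited FDR called 4292 genes and limma, on the same ratios, 57, all of them among the 4292.

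Against the Pdx1 heterozygotes, 0 of the 9 members passed the limma test, beside 0.108% of all genes (20 of 18541), and 1 of 9 had an unadjusted p under 0.05, beside 16.1%. The authors' deposited table called 0 of the 9 higher and 1 lower, Prickle1, beside 8.31% and 8.94% of all genes, or 17.3% in either direction. Prickle1 and Vangl2 did not overlap between the groups, both lower in double heterozygotes, beside 11.4% of all genes lower without overlap. The median log2 ratio of the 9 was -0.11, beside 0.01 over all genes. Both comparisons use the same 3 double-heterozygote samples, so a like direction in both is not an independent repeat.

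**Figure D2:**
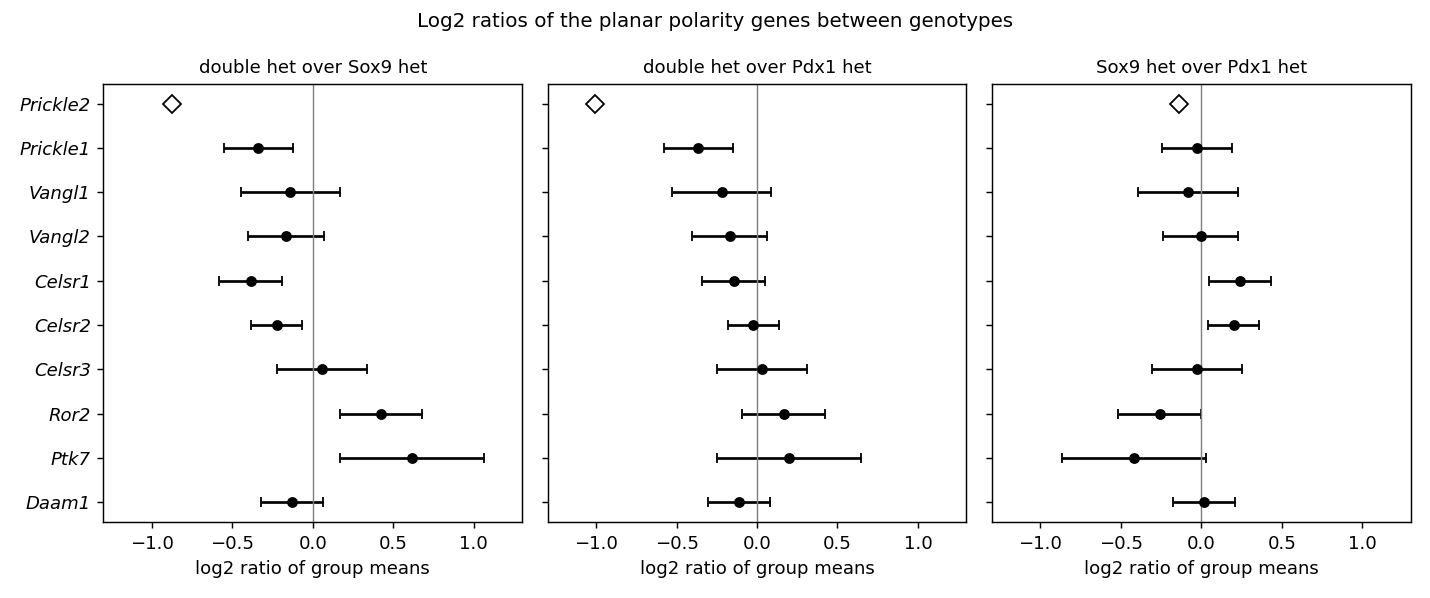
Log2 ratios of the 10 genes (horizontal axis, differences of mean log2 intensity) for double over Sox9, double over Pdx1, and Sox9 over Pdx1 heterozygotes. Circles with bars are limma estimates with unadjusted 95% intervals; the open diamond is Prickle2, which chose the set and has no interval. Prickle2 lies at -0.87 and -1.01 in the first and second panels, where the next lowest member is Celsr1 at -0.38 in the first and Prickle1 at -0.36 in the second.

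The Sox9 over Pdx1 comparison sets the single heterozygotes against each other. Here too 0 of the 9 members passed the limma test, beside 0.232% of all genes (43 of 18541), and 3 of 9 had an unadjusted p under 0.05, beside 6.29%. Celsr1 (log2 ratio 0.24 ± 0.087 SE, adjusted p = 0.647) and Celsr2 (0.20 ± 0.071, adjusted p = 0.63) were higher in Sox9 heterozygotes without overlap, beside 6.54% of all genes. Ror2 was lower without overlap (-0.26 ± 0.114, adjusted p = 0.79), beside 6.04% of all genes. Ptk7 had a log2 ratio of -0.42 ± 0.199 (adjusted p = 0.829), and its groups overlapped. Prickle2 stood at -0.14, and the log2 ratios of Prickle1, Vangl1, Vangl2, Celsr3 and Daam1 were between -0.08 and 0.02. For Celsr1, Celsr2, Ror2 and Ptk7, the mean log2 intensity of the Pdx1 heterozygotes lay between those of the double and the Sox9 heterozygotes.

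Other genes of the pathway were read from a list of 41, of which 38 were in the table. Of the 38, 1 passed the limma test and was lower in double heterozygotes in both comparisons, beside 0.307% and 0.108% of all genes in either direction. Of the 38, 0 passed as higher, and 0 passed between the single heterozygotes. The gene that passed was Mapk8, which encodes the kinase JNK1, an effector of non-canonical Wnt signalling. Mapk8 had 916, 979 and 841 in double heterozygotes, against 1521, 1784 and 1542 in Sox9 heterozygotes and 1467, 1519 and 1616 in Pdx1 heterozygotes. All its double heterozygotes lay below all single heterozygotes. It fell by 0.82 ± 0.0902 (SE) on the log2 scale against the Sox9 heterozygotes (limma adjusted p = 0.0175) and by 0.75 ± 0.0902 against the Pdx1 heterozygotes (adjusted p = 0.0334). The call against the Sox9 heterozygotes was lost without double-heterozygote replicate 1 (adjusted p = 0.0542) or Sox9-heterozygote replicate 2 (0.0612) and in a fit of those groups alone (0.0787). The call against the Pdx1 heterozygotes was lost with any 1 of the 9 samples left out (0.0559 to 0.0954), while the log2 ratio stayed between -0.80 and -0.69. Mapk9, the gene of the related kinase JNK2, had log2 ratios of -0.15 and -0.07 (adjusted p = 0.369 and 0.732).

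The other listed genes are described by role, with none past the limma test. The median log2 ratio of the 38 was 0.04 against the Sox9 heterozygotes and -0.03 against the Pdx1 heterozygotes. The authors' deposited FDR called 7 of the 38 higher and 7 lower against the Sox9 heterozygotes, beside 12.0% and 11.1% of all genes. Against the Pdx1 heterozygotes it called 3 higher and 4 lower, beside 8.31% and 8.94%. Mapk8, Ankrd6, Csnk1e and Fat1 were called lower in both comparisons. Ankrd6, the vertebrate counterpart of fly Diego and a partner of Prickle and Dishevelled, had 3521, 3138 and 2440 in double heterozygotes, against 5805, 3784 and 3428 in Sox9 heterozygotes and 3689, 4391 and 4256 in Pdx1 heterozygotes. Its log2 ratios were -0.49 and -0.45 (adjusted p = 0.158 and 0.308), and its double heterozygotes overlapped with the Sox9 heterozygotes. Without overlap between the groups, 10 of the 38 were higher and 7 lower against the Sox9 heterozygotes, beside 18.6% and 16.7% of all genes. Against the Pdx1 heterozygotes 6 were lower without overlap, beside 11.4% of all genes. A further 5 were higher without overlap, for which the share of all genes is not reported here. Fat1, an atypical cadherin of the Fat and Dachsous system, lay below all single heterozygotes, with 15851, 14923 and 13504 in double heterozygotes, against 18982, 18365 and 17596 in Sox9 heterozygotes and 17429, 18974 and 18579 in Pdx1 heterozygotes. The log2 ratio of Fat1 was -0.31 in both comparisons (adjusted p = 0.102 and 0.145). The other measured genes of that system had log2 ratios above 0 against the Sox9 heterozygotes, 0.37 for Fat4, 0.29 for Fat3, 0.27 for Dchs1 and 0.02 for Fjx1 (adjusted p = 0.112, 0.187, 0.136 and 0.944). Prickle3 had log2 ratios of -0.35 and -0.14 (adjusted p = 0.14 and 0.56). The formin gene Daam2, a relative of Daam1, had log2 ratios of 0.46 and 0.06 (adjusted p = 0.102 and 0.803). Fzd3 and Fzd6, the Frizzled receptors best known for planar polarity, stood at 0.16 and 0.05 against the Sox9 heterozygotes (adjusted p = 0.181 and 0.735).

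**Figure D3:**
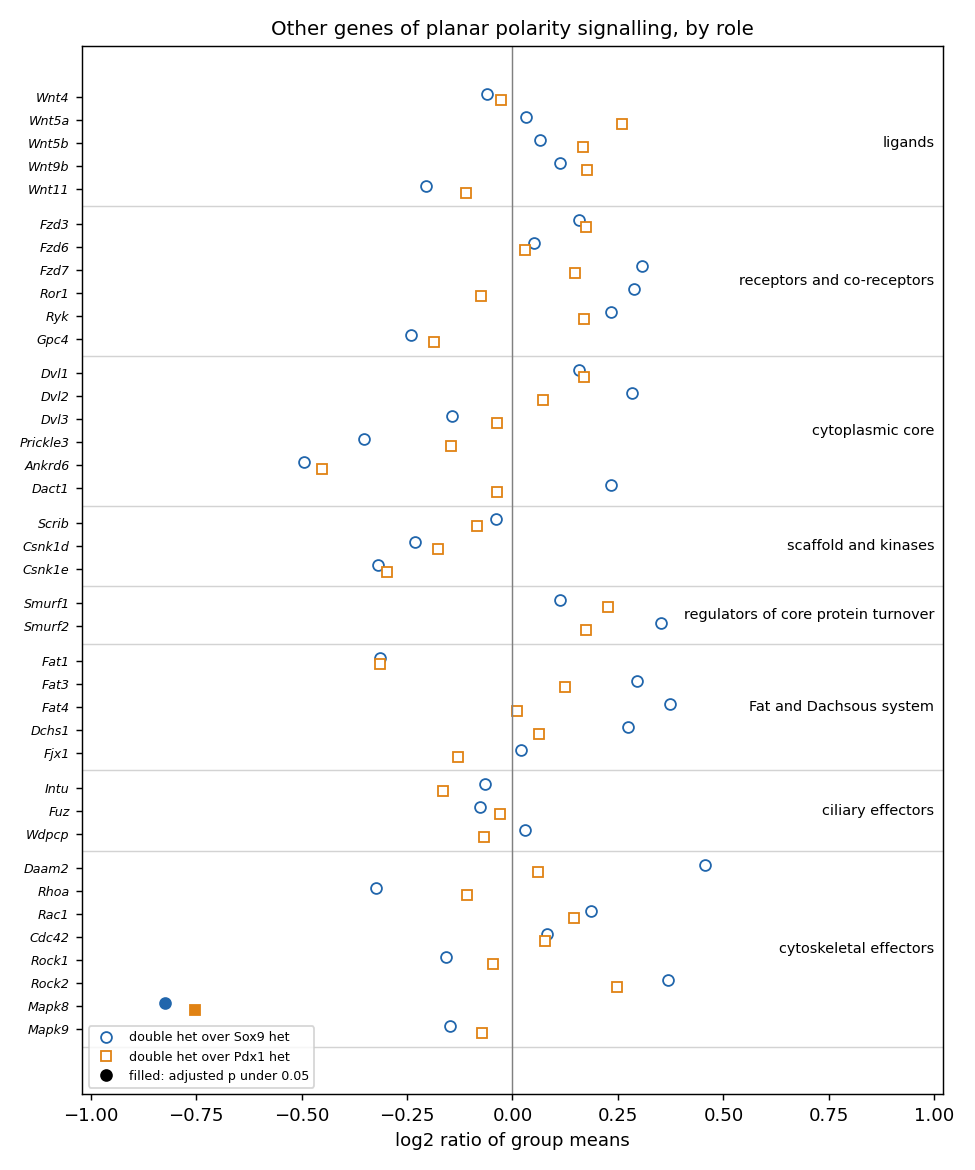
Log2 ratios (horizontal axis) of 38 further planar polarity genes grouped by role, for double over Sox9 (blue circles) and double over Pdx1 heterozygotes (orange squares). Filled symbols passed the limma test at an adjusted p under 0.05; this holds for Mapk8 in both comparisons, and all other symbols are open.

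The endocrine genes were read beside the Celsr genes. Of 20 endocrine genes, 0 passed the limma test in any comparison. The median log2 ratio was -0.20 against the Sox9 heterozygotes and -0.18 against the Pdx1 heterozygotes, with 14 and 16 of the 20 below 0. Neurog3, which starts endocrine differentiation, had 573, 412 and 255 in double heterozygotes, against 684, 413 and 439 in Sox9 heterozygotes and 612, 673 and 732 in Pdx1 heterozygotes. Its double heterozygotes lay below the Pdx1 heterozygotes without overlap (log2 ratio -0.77, limma adjusted p = 0.248). Against the Sox9 heterozygotes Neurog3 overlapped (log2 ratio -0.35, adjusted p = 0.416). At an unadjusted p under 0.05 there were 4 of the 20 against the Sox9 heterozygotes, beside 27.4% of all genes, and 6 of the 20 against the Pdx1 heterozygotes, beside 16.1%. The authors' deposited FDR called 1 of the 20 higher and 5 lower with Sox9 heterozygotes as reference, beside 12.0% and 11.1% of all genes. With Pdx1 heterozygotes as reference it called 0 higher and 7 lower, beside 8.31% and 8.94%. For Neurog3 this FDR was 0.0925 and 0.00603, in that order. Lower without overlap were 5 and 8 of the 20, beside 16.7% and 11.4% of all genes, and 0 were higher without overlap.

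The genes whose intensities over the 9 samples were most like those of Prickle2 were taken by Pearson correlation of log2 values, a description over 9 samples that share 3 genotypes. The choice left out the members and genes without a usual gene symbol, such as those with clone or predicted-gene names. Of the genes kept, Rian, an imprinted non-coding RNA, was the nearest (r = 0.98, Spearman's rank correlation 0.72). It had 305, 300 and 250 in double heterozygotes, against 450, 458 and 455 in Sox9 heterozygotes and 503, 471 and 424 in Pdx1 heterozygotes. The next were Vti1a, a vesicle fusion gene (r = 0.97), Hgf, the ligand of the Met receptor (r = 0.97), Scp2d1 (r = 0.97) and Phf6, a chromatin-associated PHD finger gene (r = 0.97). In all 5 the double heterozygotes lay below all single heterozygotes, as the choice by likeness to Prickle2 largely fixed, with log2 ratios against the Pdx1 heterozygotes between -0.76 and -0.49. Of 18540 other genes, 243 had an r over 0.9 with Prickle2. Among all 18541 genes, 33 had a higher r than Prickle1 (0.95), a count that includes Prickle2 itself. The other members were lower, with Celsr1 at 0.68, Vangl1 at 0.61 and Vangl2 at 0.49, and with Ror2 at -0.69, Ptk7 at -0.49 and Celsr3 at -0.38.

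**Figure D4:**
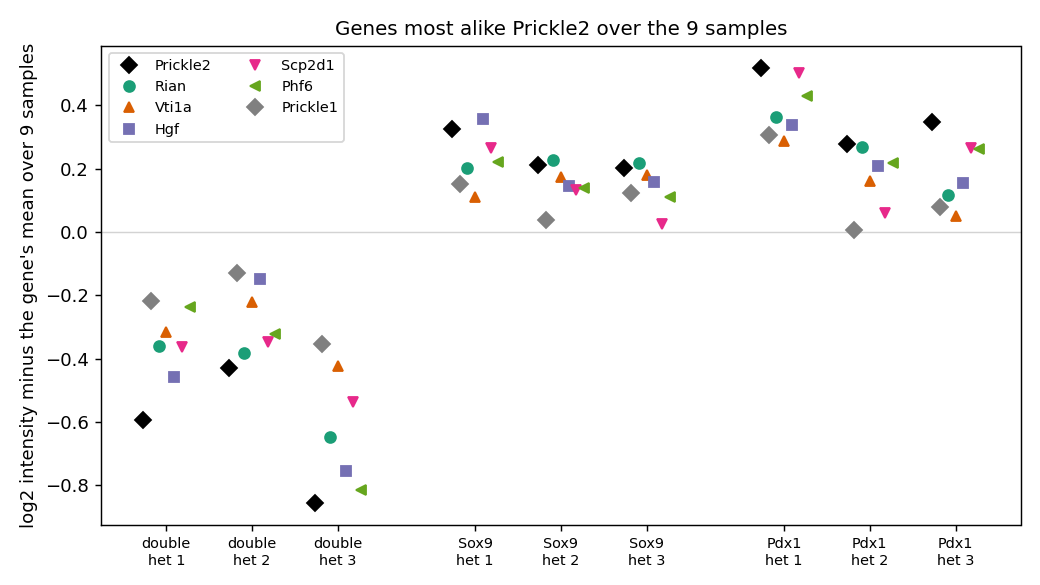
Log2 intensity minus the gene's own mean over the 9 samples (vertical axis) for Prickle2, its paralog Prickle1 and 5 genes, by sample (horizontal axis: double, Sox9 and Pdx1 heterozygotes). The 5 are those most like Prickle2 among genes with a usual gene symbol, members left out. Each symbol is 1 sample; all double-heterozygote symbols lie below 0 and all single-heterozygote symbols above it, a pattern largely fixed by choosing genes for their likeness to Prickle2.

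Markers of other cells in the dissected tissue were set beside these results. The summed intensity of 10 markers of neurons and neural crest was 2371 to 2621 in double heterozygotes, against 3161 to 3585 in Sox9 heterozygotes and 2895 to 3510 in Pdx1 heterozygotes, without overlap. Of the 10 markers, 9 had a log2 ratio below 0 against the Sox9 heterozygotes and 10 against the Pdx1 heterozygotes, with medians of -0.34 and -0.27, and 0 passed the limma test (7 and 6 of the 10 had an unadjusted p under 0.05, beside 27.4% and 16.1% of all genes). These markers thus moved with Prickle2, which is also known from neurons in the mouse; their part in its result was not tested. Of 10 mesenchymal markers, 9 had a log2 ratio below 0 against the Sox9 heterozygotes and 7 against the Pdx1 heterozygotes, with a median of -0.11 in both, and 0 passed. Their summed intensity, most of it from Vim, was 84134 to 89459 in double heterozygotes, against 83077 to 99157 in Sox9 heterozygotes and 85769 to 94223 in Pdx1 heterozygotes. Col1a1 went the other way against the Sox9 heterozygotes, higher without overlap (log2 ratio 0.72, limma adjusted p = 0.148). Against the Pdx1 heterozygotes Col1a1 (0.31, with overlap), Twist1 (0.16, without overlap) and Col1a2 (0.00013) were above 0. Col1a2, Col3a1, Dcn and Prrx1 were dim, between 79 and 126 in every sample, on arrays with lower quartiles of 117 to 122. Of 8 epithelial markers, 6 had a log2 ratio above 0 against the Sox9 heterozygotes and 7 against the Pdx1 heterozygotes (medians 0.27 and 0.10). Their summed intensity, most of it from Krt18, Spp1 and Krt8, was 159668 to 170595 in double heterozygotes. It was 145425 to 158997 in Sox9 heterozygotes, without overlap, and 150704 to 174460 in Pdx1 heterozygotes. Against the Sox9 heterozygotes Cdh1 went the other way, lower without overlap (log2 ratio -0.22, limma adjusted p = 0.127), Krt18 stood at -0.05, and Epcam overlapped (0.07). The sum of 7 pancreatic progenitor markers, most of it from Cpa1, was 122986 to 128608 in double heterozygotes. It was 88024 to 100869 in Sox9 heterozygotes, without overlap, and 93840 to 124487 in Pdx1 heterozygotes. Cpa1 alone gave 109553, 108986 and 112072 in double heterozygotes, against 75082, 85744 and 74082 in Sox9 heterozygotes. Of the 7, 5 had a log2 ratio above 0 against the Sox9 heterozygotes, with Pdx1 (-0.25) and Nkx6-1 (-0.15) below 0. Against the Pdx1 heterozygotes 6 of the 7 were above 0. In either comparison 0 of the 7 passed the limma test. The part of these markers in the members' values was not tested. Of the epithelial markers, Krt19 passed against the Sox9 heterozygotes, higher in double heterozygotes (log2 ratio 0.84, limma adjusted p = 0.0341), a call kept in 1 of 9 fits with a sample left out (0.0229 to 0.145). Of 5 markers each of endothelium, erythroid cells and white blood cells, 0 passed in any comparison. In RNA from whole tissue, fewer cells of a type and less RNA per cell cannot be told apart.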

How the data were processed

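Per the labels' protocols, Cy3-labelled RNA was hybridised to Agilent arrays in 1 colour. The authors deposited 1 linear intensity per probe and sample, on arrays with nearly equal medians; for background correction, normalization and probe choice, a method is not given in the sources used. The authors also deposited log2 ratios (double against single heterozygotes) and a column named FDR, read as adjusted p-values, per the file headers. The submitters' processing notes name limma with no role. Another 9 columns of values named by array were not assigned to samples and not used.

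Log2 of the intensities was taken without a pseudocount or a filter. Rows were matched by probe name: the differences of group means equalled the authors' deposited log2 ratios within 1e-06 for all 18541 genes. Groups were compared with lmFit and eBayes of limma 3.58.1 in R 4.3.3, with all 9 samples in 1 fit and Benjamini-Hochberg adjustment over all genes at a threshold of 0.05. The fit was also run on simulated independent normal values with known changes, and the outcome is not reported here. Symbols were updated through Entrez numbers and RefSeq (17183 genes matched). The title of 1 double-heterozygote sample names replicates 3 and 4; it was taken as replicate 3. Replicate numbers were not taken to pair samples. An exact permutation test of 3 against 3 samples cannot go below 0.1, so none was run. The members, lists and named genes were chosen with earlier results of these data known. Named genes were all members, list genes past the threshold by size of ratio, Sox9 and Pdx1. Also named were the 5 genes most like Prickle2 by correlation, among genes with a usual gene symbol and with members left out. Genes named beside these, such as Ankrd6, Fat1 and Neurog3, were chosen after their values were seen.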

Additional observations from a re-analysis of the deposited data

How the results depend on the processing

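With 1 sample left out at a time, the number of genes past the threshold was 4 to 68 (57 with all samples) for double over Sox9, 1 to 9 (20 with all) for double over Pdx1, and 4 to 71 (43 with all) for Sox9 over Pdx1 heterozygotes. In the order of the first and second comparison, the authors' deposited FDR gave 4292 and 3199 genes, a fit of only the compared groups 3 and 2, leaving out the genes below the lower quartile of mean intensity 92 and 43, and an FDR threshold of 0.1 463 and 78. For Sox9 over Pdx1 heterozygotes the threshold of 0.1 gave 67 genes. Subtracting the 1st percentile of each array, an alternative chosen after seeing the data, gave 32, 7 and 14 genes in the 3 comparisons and moved Prickle2 to -1.16 against the Pdx1 heterozygotes. Against the Sox9 heterozygotes the subtraction moved Prickle1 from -0.34 to -0.49, Celsr2 from -0.22 to -0.32 and Ror2 from 0.42 to 0.56. The brighter Celsr1 and Ptk7 stood at -0.39 and 0.62 after it. The cause of the gap between the deposited FDR and the limma fit was not tested.

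With the replicate number as a block, Sox9 over Pdx1 heterozygotes gave 18 genes in place of 43, and the other counts stayed within 1.5 times. Over the 3 pairs of groups, same-numbered samples did not consistently deviate together (r of deviations -0.18 to 0.24). Not every sample correlated best with its own number. Between double and Pdx1 heterozygotes, however, r was 0.065, 0.23 and 0.15 for replicates 1, 2 and 3. Each was above the r of differently numbered samples of those groups (-0.18 to 0.024). With the block, double over Pdx1 heterozygotes gave 16 genes in place of 20.

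Of the 9 members tested, 0 passed at a threshold of 0.05 in any alternative limma fit, while the authors' deposited FDR passed 5 and 1 of the 9. At 0.1 in the main fit, Celsr1 passed against the Sox9 heterozygotes (limma adjusted p = 0.0953). Some alternative fits had more members under 0.1 in that comparison. With the genes below the lower quartile left out, these were Prickle1, Celsr1, Celsr2, Ror2 and Ptk7 (limma adjusted p = 0.0673 to 0.0896). Signs that turned when 1 sample was left out were those of ratios near 0. Against the Sox9 heterozygotes Celsr3 ranged from -0.070 to 0.14, and against the Pdx1 heterozygotes Celsr3 ranged from -0.097 to 0.12 and Celsr2 from -0.061 to 0.034. For Sox9 over Pdx1 heterozygotes the ranges were -0.087 to 0.062 for Prickle1, -0.23 to 0.029 for Vangl1, -0.084 to 0.089 for Vangl2, -0.12 to 0.061 for Celsr3, -0.037 to 0.048 for Daam1 and -0.0012 to 0.11 for Mapk8. Centring each array on its median gave 0.0036 for Vangl2 in that comparison.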
